A study of Mus musculus with 3 samples.

Results

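The miRNAs in the introns of Clcn5, a group of hairpins on the mouse X chromosome, were followed in exosomes, the small vesicles that cells release into their medium. The members were chosen by name, as the arms of miR-532, miR-362, miR-188, miR-500, miR-501 and miR-660 listed for this locus, a rule that uses no measured value. Of 9 listed arms, 8 were matched among 1915 mature miRNAs in the count tables, and miR-660-5p was not analysed here. The vesicles came from bone-marrow-derived macrophages of wild type C57BL/6 mice, grown for 24 h with M-CSF, on which macrophages depend to form and survive, and then for 72 h with serum freed of exosomes. All 3 small RNA libraries belong to 1 group, so the design holds no comparison between conditions. The labels do not say whether libraries 1, 2 and 3 came from separate cultures or animals, and their spread may be technical.

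Clcn5 encodes ClC-5, a chloride-proton exchanger of endosomes that is best known from the kidney, where its loss in humans causes Dent disease. Where a miRNA inside an intron is made from the host transcript, Drosha cuts it out as a hairpin. Dicer then releases a 5p and a 3p arm. Usually one arm is kept by an Argonaute protein, and its bases 2 to 8, the seed, select the target mRNAs. An arm and its partner therefore start from the same number of hairpins. Hairpins of an intronic cluster can start from the same transcript, but whether these do was not measured here.

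In the GRCm38 annotation Clcn5 spans chrX:7153810-7319358 on the minus strand. The 5 hairpins with a measured arm lie within 10815 bases of it, in the order Mir532 (chrX:7248402-7248497), Mir188 (chrX:7247989-7248056), Mir362 (chrX:7241982-7242046), Mir501 (chrX:7241243-7241351) and Mir500 (chrX:7237683-7237774) along the direction of transcription. All are on the minus strand, as Clcn5 is, and none overlaps a Clcn5 exon. They share a single intron of 103648 bases, which is intron 2 or intron 3 of the 3 annotated Clcn5 transcripts that span them. Mir532 and Mir188 are 345 bases apart, then 5942 bases follow without a measured hairpin before Mir362, and Mir501 and Mir500 come 630 and 3468 bases after their upstream neighbours.

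The leading arm miR-532-5p had no sequence in the source used, so its seed was neither shown nor compared. The other mature arms are shown because their seeds sort them into families, with bases 2 to 8 in capitals (RefSeq, GRCm38.p6, 5′ to 3′):

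miR-532-3p: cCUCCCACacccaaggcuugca

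miR-188-3p: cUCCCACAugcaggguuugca

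miR-188-5p: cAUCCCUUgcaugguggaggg

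miR-362-5p: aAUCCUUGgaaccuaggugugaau

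miR-500-5p: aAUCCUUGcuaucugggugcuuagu

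miR-501-5p: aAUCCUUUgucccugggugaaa

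miR-362-3p: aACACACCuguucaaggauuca

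miR-501-3p: aAUGCACCcgggcaaggauuug

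miR-500-3p: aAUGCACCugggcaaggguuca

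MiR-501-3p and miR-500-3p share AUGCACC, and miR-362-5p and miR-500-5p share AUCCUUG. The seed of miR-501-5p equals the second of these over bases 2 to 7 and departs from it at base 8. Outside the cluster the seed of miR-362-3p is also that of miR-329-3p, which had 0 counts in all libraries, and the seed of miR-188-5p is that of miR-7061-3p, which had 0, 1 and 0 counts in libraries 1, 2 and 3. The whole hairpins of Mir362, Mir501 and Mir500 show that the likeness runs through both arms, which are in capitals here:

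Mir362: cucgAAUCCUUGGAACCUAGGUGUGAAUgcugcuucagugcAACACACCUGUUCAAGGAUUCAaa

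Mir501: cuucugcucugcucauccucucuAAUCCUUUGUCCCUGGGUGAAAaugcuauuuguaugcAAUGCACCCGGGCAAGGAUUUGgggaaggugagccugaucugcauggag

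Mir500: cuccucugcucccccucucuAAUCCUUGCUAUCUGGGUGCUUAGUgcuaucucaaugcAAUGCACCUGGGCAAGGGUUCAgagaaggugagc

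Mir501 and Mir500 were identical at 74 of 110 aligned positions (67.3%). As a whole hairpin Mir362 was less alike, at 43.1% with Mir501 and 54.3% with Mir500, against 57.3% with Mir188. Its likeness to Mir501 and Mir500 lay in the arms, at 75% and 72% for 5p and 68.2% and 77.3% for 3p. MiR-501-3p and miR-500-3p agreed at 18 of 22 bases. Counted from 1 at the 5′ end of miR-501-3p, the changes to miR-500-3p were C9U, A18G, U21C and G22A. How the authors' counting treated reads that fit several miRNAs was not given in the sources used here, so levels of such close relatives could exchange some reads. No member had the same counts in all libraries as any other miRNA.

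The libraries held 3008995, 2489984 and 3208617 miRNA counts, and levels are given as counts per 1000000 miRNA counts of the library (CPM). A count of 0 allows a level of up to 0.997, 1.205 and 0.935 CPM (3 counts) in libraries 1, 2 and 3. Such floors, and the intervals below, cover counting error only. More vesicles that carry a miRNA and more copies in each vesicle cannot be told apart. All 6 myeloid marker miRNAs were present, with a summed 33995, 39742 and 38679 CPM in libraries 1, 2 and 3. Most of it was miR-146a-5p, while the blood-lineage markers miR-223-3p (35.6, 52.6 and 33.0 CPM) and miR-142a-3p (42.9, 1364 and 819 CPM) were low or uneven. The rest of the list was miR-142a-5p (292, 818 and 390 CPM), miR-155-5p (74.8, 2388 and 829 CPM) and miR-342-3p (149, 106 and 65.4 CPM). Of the 6, only miR-342-3p was highest in library 1.

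The cluster was present in every library as a minor part of the profile. Its 8 arms together took 0.664% ± 0.484 of miRNA counts (SD, n = 3). By library this was 1.21% (Wilson 95% interval 1.202 to 1.227), 0.304% (0.297 to 0.311) and 0.475% (0.467 to 0.482). Library 1 stood highest, library 2 lowest, and no interval touched another. Without library 1 the mean was 0.389%. Almost all of the sum came from the 5p arm of Mir532 and the 3p arm of Mir501.

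The arm mmu-miR-532-5p, from the first hairpin and known to target RUNX3 in human cells, led the cluster. It had 31887, 6066 and 13488 counts, or 10597, 2436 and 4204 CPM, in libraries 1, 2 and 3. The mean was 5746 ± 4293 CPM (SD, n = 3), the 28th highest of all miRNAs in the tables, and its rank was 19, 41 and 29 in the 3 libraries. Within the cluster it held 87.3% (Wilson 95% interval 86.9 to 87.6), 80.2% (79.2 to 81.0) and 88.5% (88.0 to 89.0). Without library 1 its mean was 3320 CPM.

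Next came mmu-miR-501-3p, an arm described in activated muscle satellite cells of mice. It had 1259, 475 and 490 CPM in libraries 1, 2 and 3, a mean of 741 ± 448 CPM (SD, n = 3) and rank 73. Libraries 2 and 3 were close for this arm, and library 1 stood apart. Its share of the cluster was 10.4%, 15.6% and 10.3%. Without library 1 its mean was 482 CPM. Its seed partner mmu-miR-500-3p was far lower, at 35.9, 21.7 and 11.84 CPM with a mean of 23.1 ± 12.1 (SD, n = 3). The ratio of miR-501-3p to miR-500-3p was 35.1 (exact 95% interval 29.0 to 42.9), 21.9 (16.7 to 29.3) and 41.3 (29.99 to 58.6) in libraries 1, 2 and 3. Thus the 2 arms with the same seed differed in level in every library by far more than their counting error.

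**Figure D1:**
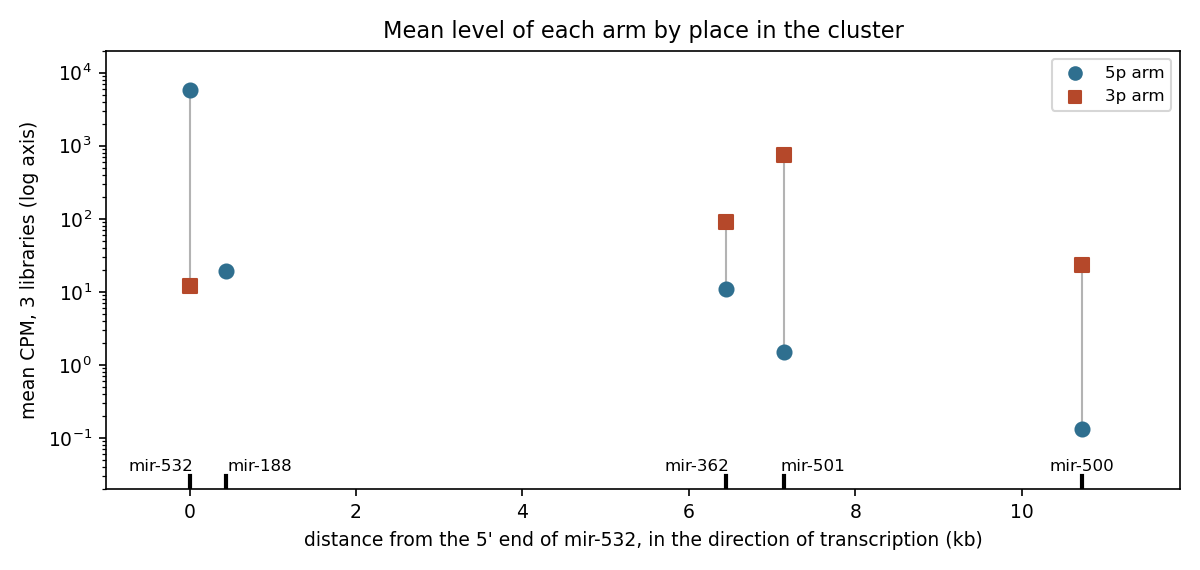
Mean CPM of each arm over 3 libraries (log axis) against the distance of its hairpin from the 5′ end of mir-532 in kilobases; circles are 5p arms, squares 3p arms, and miR-188-3p, with 0 counts, is not drawn. The higher arm is the 5p arm in the first 2 hairpins and the 3p arm in the last 3, and the levels run from 5746 CPM for miR-532-5p to 0.134 CPM for miR-500-5p.

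The 3p arm of Mir362, mmu-miR-362-3p, had place 3 in every library, at 173, 62.7 and 31.8 CPM in libraries 1, 2 and 3 (mean 89.3 ± 74.5, SD, n = 3). Here library 2 stood above library 3, while for miR-501-3p these libraries were close. Its mean without library 1 was 47.2 CPM. The arm mmu-miR-188-5p, whose hairpin in mouse marrow stromal cells is known to favour fat over bone formation by repressing Hdac9 and Rictor, had 150, 18 and 5 counts, or 49.9, 7.23 and 1.56 CPM. Its mean of 19.5 ± 26.4 CPM (SD, n = 3) rested on library 1 and was 4.39 CPM without it. The arm mmu-miR-532-3p, the minor arm of the first hairpin, had 71, 21 and 13 counts, or 23.6, 8.43 and 4.05 CPM, with a mean of 12.0 ± 10.3 CPM (SD, n = 3) and of 6.24 CPM without library 1.

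The last 2 members departed from this order. The arm mmu-miR-362-5p, known to target the deubiquitinase CYLD in human cells, had 6, 63 and 19 counts, or 1.99, 25.3 and 5.92 CPM, in libraries 1, 2 and 3. It was lowest where most other members were highest, and its mean of 11.1 ± 12.5 CPM (SD, n = 3) was 3.96 CPM without library 2. The arm mmu-miR-501-5p had 3, 7 and 2 counts, or 0.997, 2.81 and 0.623 CPM. Such levels lie near the floor of 3 counts, so no difference among the libraries could be read from them, and its mean of 1.48 CPM was 0.810 without library 2.

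Ordered by level, miR-532-5p, miR-501-3p and miR-362-3p took places 1, 2 and 3 in every library, and their ranges over the libraries did not overlap. MiR-501-5p was last in each. The 4 arms between, miR-500-3p, miR-188-5p, miR-532-3p and miR-362-5p, had overlapping ranges and changed places, except that miR-532-3p had place 6 of 8 in each library. MiR-188-5p had place 4 in library 1 and place 7 in libraries 2 and 3, while miR-362-5p had places 7, 4 and 5.

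**Figure D2:**
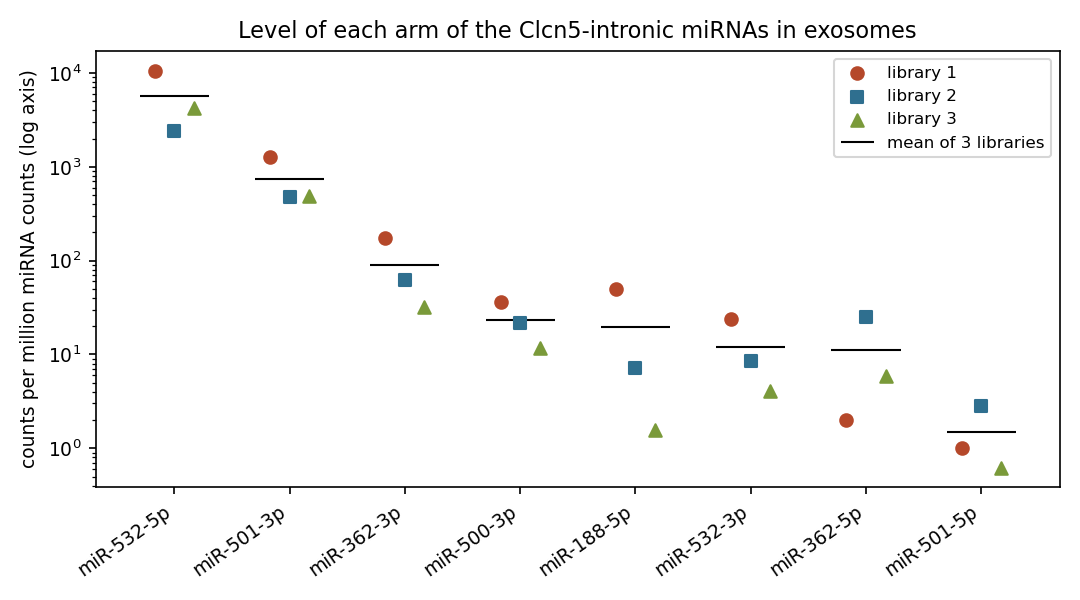
CPM of the 8 arms in libraries 1, 2 and 3 (points, log axis) with their mean (line). MiR-532-5p ranges from 2436 to 10597 CPM and stays above miR-501-3p, at 475 to 1259 CPM, while the lower arms overlap and miR-362-5p is lowest in library 1.

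Whether counting error alone could give the members' spread over the libraries was tested with a chi-square test of each miRNA's 3 counts against the library totals, with p-values adjusted by Benjamini-Hochberg over all 353 miRNAs whose 3 counts summed to 30 or more. It compares these libraries, not conditions. Of the 8 arms 7 passed the filter, miR-501-5p being too low, and all 7 differed. This is close to the background, since 90.1% of all tested miRNAs differed. The chi-square statistic was largest for miR-532-5p, at 17858, and for miR-501-3p, at 1576, the arms with the most counts, and smallest for miR-500-3p, at 39.4 (adjusted p = 4.45e-09). Without library 1, 4 of the 6 members still tested differed, against 61.5% of all miRNAs. The exceptions were miR-501-3p (adjusted p = 0.494) and miR-532-3p (adjusted p = 0.0541), and miR-188-5p was no longer tested.

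Most arms were highest in library 1, as most miRNAs were. This held for 6 of the 7 tested arms, while 60.3% of all tested miRNAs were highest there. With TMM factors, which scale libraries by the bulk of the miRNAs, the same 6 of 7 were highest in library 1, against 45.6% of all. For miR-500-3p this place was within counting error, at a TMM log2 ratio of 0.11 (-0.37 to 0.61) for library 1 over library 2. MiR-362-5p was highest in library 2, as were 20.1% of all.

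The summed cluster was 3.99-fold higher in library 1 than in library 2, a log2 ratio of 2.00 (exact 95% interval 1.96 to 2.03). The median log2 ratio over the 353 miRNAs was 0.75 for this pair. Against library 3 the summed cluster in library 1 had a log2 ratio of 1.35 (1.33 to 1.38), with a median of 1.00 over all. Library 2 stood below library 3, with a log2 ratio of -0.64 (-0.68 to -0.60) and a median of 0.22 over all. Scaling by TMM factors lowered these 3 ratios to 1.38, 0.49 and -0.89 and kept their signs. With miR-532-5p left out, the other arms summed to 1544, 603 and 545 CPM in libraries 1, 2 and 3. Library 2 was then above library 3, with a log2 ratio of 0.15 (0.045 to 0.25), but this sign turned to -0.10 with TMM factors. Most of this remainder was miR-501-3p, at -0.29 with TMM factors. The ratios of the other arms stayed above 0 with TMM factors, at 0.73 for miR-362-3p, 1.85 for miR-362-5p and 1.97 for miR-188-5p. For miR-532-3p, miR-500-3p and miR-501-5p the intervals reached below 0. 

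Single arms did not follow the sum in step. MiR-188-5p was 31.99-fold higher in library 1 than in library 3, a log2 ratio of 5.00 (exact 95% interval 3.75 to 6.64), although miR-532-5p, whose hairpin lies 345 bases away, was 2.52-fold higher, a log2 ratio of 1.33 (1.30 to 1.36). With TMM factors the folds were 17.6 for miR-188-5p and 1.39 for miR-532-5p. The 2 intervals are far apart, and the gap between them is free of library scaling. In counts, the ratio of miR-532-5p to miR-188-5p was 213 (181 to 251), 337 (213 to 569) and 2698 (1156 to 8309) in libraries 1, 2 and 3. The ratio of miR-532-5p to miR-501-3p was steadier, at 8.42 (8.14 to 8.71), 5.13 (4.82 to 5.46) and 8.59 (8.15 to 9.05). MiR-362-5p ran the other way, with a log2 ratio of -3.67 (-5.17 to -2.46) for library 1 over library 2 and of -1.57 (-3.18 to -0.19) for library 1 over library 3. With TMM factors these were -4.28 and -2.43. The erythroid marker list summed to 89.7, 27.7 and 15.6 CPM in libraries 1, 2 and 3, with log2 ratios of 1.70 and 2.53 for library 1 over libraries 2 and 3. The medians over all miRNAs were 0.75 and 1.00, and TMM factors lowered the erythroid ratios to 1.08 and 1.66. The stromal list summed to 247, 141 and 135 CPM, mostly miR-199a-3p. Its log2 ratios of 0.81 and 0.87 were near the medians over all miRNAs and came to 0.19 and 0.0088 with TMM factors. The epithelial and liver lists were lower in library 1 by their sums, at 82.8, 459 and 285 CPM and at 322, 548 and 1500 CPM. The epithelial sum rested on miR-200b-3p and miR-200c-3p, while miR-205-5p (17.6, 87.6 and 3.74 CPM) and miR-141-3p (2.33, 3.61 and 1.56 CPM) were higher in library 1 than in library 3. The endothelial list had 25.9, 44.6 and 25.2 CPM. All members of these lists were in the tables (3 erythroid, 4 stromal, 5 epithelial, 1 liver, 2 endothelial), and the only ones at 0 were miR-144-3p (erythroid) in library 3 and miR-145a-5p (stromal) in library 2. The part of these cells' RNA in the members' levels was not tested.

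**Figure D3:**
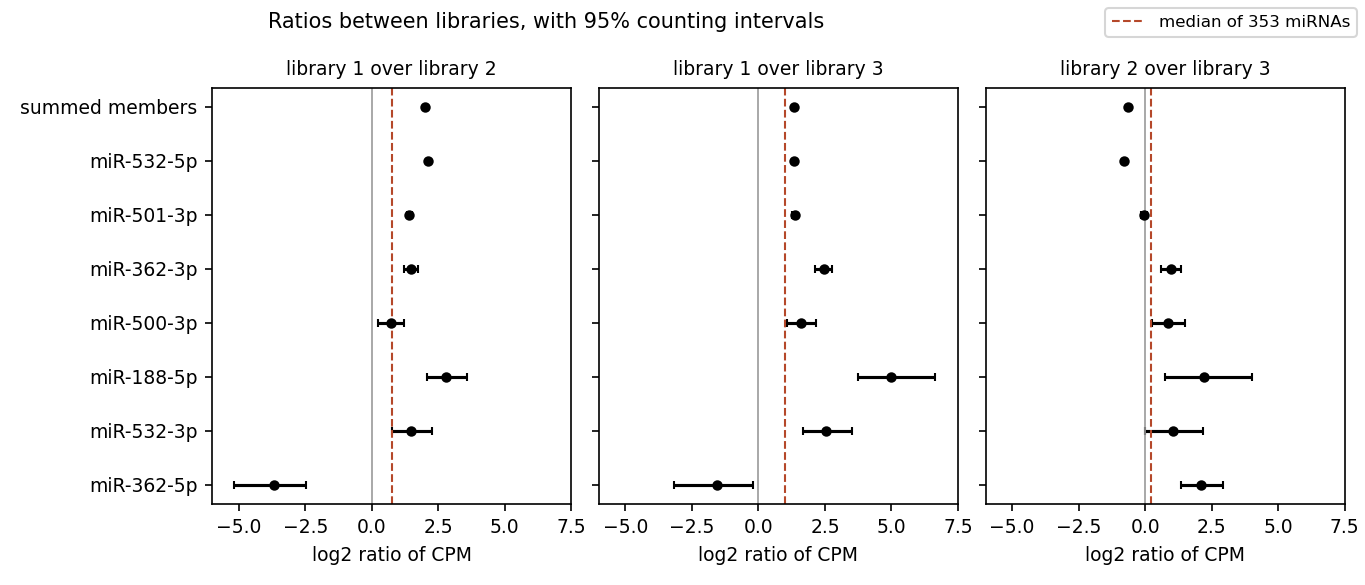
Log2 ratios of CPM between pairs of libraries for the summed members and the 7 arms with at least 30 counts, with exact 95% counting intervals (bars); the dashed line is the median of the 353 tested miRNAs and the grey line is 0. Against library 3, miR-188-5p in library 1 lies at 5.00 and miR-532-5p at 1.33, while miR-362-5p is below 0 for library 1 over either other library.

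By their coefficient of variation over the 3 libraries the members lay on both sides of the median of 64.2% for all 353 miRNAs. MiR-500-3p, at 52.2%, and miR-501-3p, at 60.5%, were below it. MiR-532-5p at 74.7%, miR-362-3p at 83.4% and miR-532-3p at 85.3% were above it. MiR-362-5p at 113% and miR-188-5p at 135% were the most variable members, the last more so than 97.5% of all tested miRNAs.

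The makeup of the cluster was therefore not constant. MiR-188-5p made up 0.411% of it in library 1 (Wilson 95% interval 0.350 to 0.482), 0.238% in library 2 (0.151 to 0.376) and 0.0328% in library 3 (0.0140 to 0.0768). MiR-362-5p made up 0.0164% (0.00753 to 0.0358), 0.832% (0.651 to 1.06) and 0.125% (0.0798 to 0.195). MiR-362-3p made up 1.43%, 2.06% and 0.669%. These shares are of member counts alone and do not depend on how libraries are scaled.

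**Figure D4:**
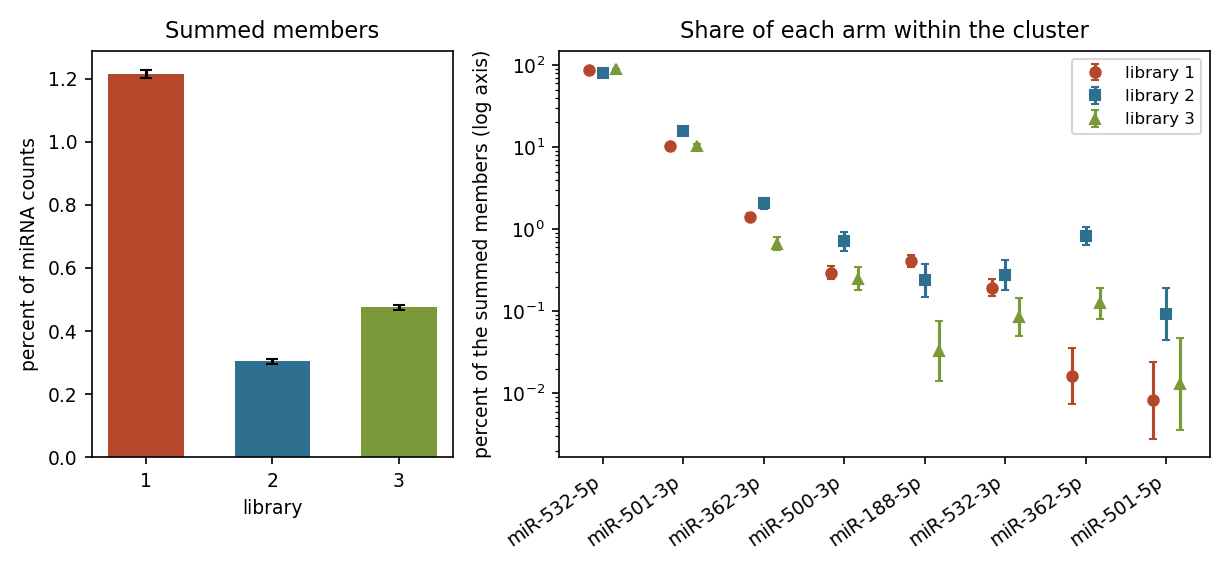
Left, the percent of miRNA counts held by the 8 summed arms in each library; right, the percent of that sum held by each arm (log axis). Bars (left) and points (right) show the percent, and whiskers show Wilson 95% intervals. The sum is 1.21%, 0.304% and 0.475% in libraries 1, 2 and 3 while miR-532-5p holds 80.2% to 88.5% of it.

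Which arm of each hairpin was in the vesicles was tested with the quasi-likelihood test of edgeR, 5p against 3p with library as a block, over 157 hairpins whose counts summed to 60 or more. The arms differed in all 5 hairpins of the cluster, where 80.3% of all tested hairpins did. The 5p arm was higher in Mir532 and Mir188, the 2 hairpins at the upstream end, and the 3p arm was higher in Mir362, Mir501 and Mir500. Over all tested hairpins 41.4% had a higher 5p arm and 38.9% a higher 3p arm.

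For Mir532 the 5p arm took 99.8%, 99.7% and 99.9% of the counts of both arms in libraries 1, 2 and 3. The log2 ratio of 5p to 3p averaged 9.001 ± 0.94 over the libraries (SD, n = 3), and the fitted value was 8.98 (edgeR, adjusted p = 5.41e-14). For Mir188 the 3p arm had 0 counts everywhere. Against a floor of 3 counts per library the 5p arm was at least 50.0-fold higher in library 1 and 6.00-fold in library 2, and exact 95% intervals that also cover the counting error of the 5p arm began at 40.2 and 4.40 (edgeR, adjusted p = 3.67e-05). In library 3, with 5 counts, that interval began at 0.916, so a difference was not detectable there at this depth.

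For Mir501 the 3p arm outnumbered the 5p arm by 1262 (exact 95% interval 432 to 6124), 169 (81.8 to 421) and 786 (217 to 6492) in libraries 1, 2 and 3. Its log2 ratio of 5p to 3p averaged -9.11 ± 1.52 over the libraries (SD, n = 3; edgeR adjusted p = 2.45e-11). For Mir500 the 5p arm had a single count, in library 2, against 108, 54 and 38 counts of the 3p arm. The summed ratio of 3p to 5p was 200 (35.5 to 7939; edgeR adjusted p = 8.55e-06). MiR-500-5p and miR-362-5p carry the same seed, as printed above, but the first is all but absent.

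By the fitted value over all libraries, Mir362 had the smallest difference between its arms of the 5 hairpins, an order that need not hold in a single library. Its 5p share was 1.14% (Wilson 95% interval 0.522 to 2.46), 28.8% (23.2 to 35.1) and 15.7% (10.3 to 23.2) in libraries 1, 2 and 3. The 3p arm was thus higher in 3 of 3 libraries, but by 87.0-fold in library 1 and by 2.48-fold in library 2. The fitted log2 ratio of 5p to 3p was -3.11 (edgeR, adjusted p = 0.0059). Without library 3 it was -3.74 with an adjusted p of 0.0624 (edgeR), so this call was lost. MiR-362-3p and miR-362-5p are printed above as the 2 capital runs of the Mir362 hairpin.

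A chi-square test of the arm counts over the libraries, added after seeing the data, asked whether the 5p share itself varied over the libraries beyond counting error. It did for 3 of the 4 cluster hairpins that could be tested, against 71.4% of 133 hairpins. The adjusted p was 2.67e-29 for Mir362, 0.00152 for Mir532, 0.00242 for Mir501 and 0.321 for Mir500. Shares near either end of the percent scale have little room to move, and in percentage points only Mir362 moved much. Its 5p share spanned 27.6 percentage points, the 26th widest of 133, where the median was 4.88 points. Mir532 and Mir501 spanned 0.249 and 0.509 points. As log2 ratios of 5p to 3p the contrast was smaller, with an SD over libraries of 2.70 for Mir362, 1.52 for Mir501 and 0.94 for Mir532. For Mir362 the call held without library 1 (adjusted p = 0.0196), without library 2 (2.04e-13) and without library 3 (1.21e-31). For Mir532 it was lost without library 3 (adjusted p = 0.109), and for Mir501 without library 1 (adjusted p = 0.0812) and without library 2 (0.634).

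**Figure D5:**
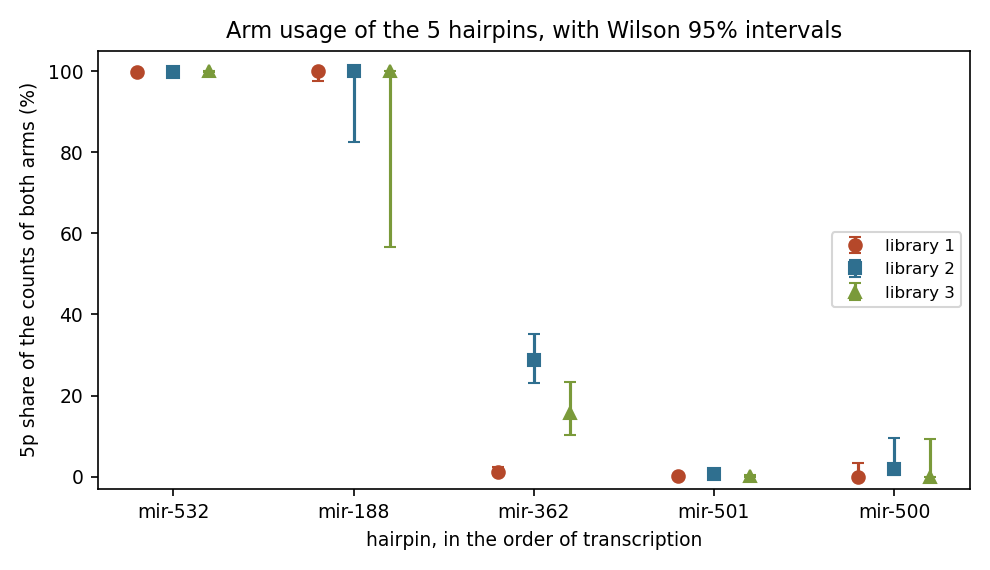
Share of the 5p arm in the counts of both arms (percent) for the 5 hairpins in the order of transcription, by library, with Wilson 95% intervals. Mir532 and Mir188 lie near 100%, Mir501 and Mir500 near 0, and Mir362 lies at 1.14%, 28.8% and 15.7% in libraries 1, 2 and 3.

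The pattern of the summed members over the 3 libraries was set against 258 other miRNAs that averaged 10 CPM or more. Likeness was the root mean square difference of log2(CPM + 1) after centring each miRNA on its mean. The closest was miR-130b-5p, at 528, 147 and 207 CPM in libraries 1, 2 and 3, with a difference of 0.074. It was followed by miR-128-3p (3723, 929 and 1264 CPM, difference 0.095), miR-185-3p (0.16), miR-92b-3p (0.16) and miR-330-3p (0.17). The median difference was 0.82. With 3 libraries from 1 group this compares only the order and size of the differences among these libraries. In the miRNAs named here library 1 was highest and library 2 lowest, as for the summed members. That sum mostly follows miR-532-5p, and of the other arms only miR-501-3p was also lowest in library 2. MiR-188-5p, miR-362-3p and miR-500-3p were lowest in library 3, and miR-362-5p in library 1. Over all tested miRNAs the median log2 ratio of library 2 over library 3 was 0.22, so most were lower in library 3 than in library 2. The share of all miRNAs lowest in library 3 was not counted. By CPM miR-532-3p was also lowest there, but its interval against library 2 reached below 0. The counts of miR-501-5p were too near the floor to place it.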

How the data were processed

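Per the labels' protocols, exosomes were pelleted from filtered medium by ultracentrifugation, RNA was extracted with TRIzol, and NEBNext small RNA libraries were sequenced as single-end reads of 50 bases. The submitters' processing notes name bcl2fastq, BWA and mm10, without versions. Read trimming, the miRNA release and how multiply matching reads were treated are not given in the sources used here. No molecular identifiers are mentioned, so counts are of PCR products.

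The authors deposited whole-number counts per mature miRNA, which all tests use, and an RPM value beside each. As worked out from the deposited columns, RPM is the count per 1000000 of 14047692, 13995845 and 14002577 in libraries 1, 2 and 3, of which miRNA counts are 21.4%, 17.8% and 22.9%. Counts were therefore divided by each library's miRNA total (CPM).

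Members and lists were chosen with earlier results of these data known. Named miRNAs were the members, the partner arms of their hairpins, miRNAs of the tables with a member's seed, and the 5 most like the summed members. The arm test used edgeR 4.0.16 (terms for library and arm, with miRNA totals as library sizes) in R 4.3.3, with arms matched by name. Intervals of shares are Wilson and those of ratios exact (Clopper-Pearson), computed with scipy 1.17.1. Sequences and hairpin positions are from RefSeq (GRCm38.p6) and introns from GENCODE vM21 (GRCm38), and 1623 of 1915 miRNAs had a sequence. Alignments were global (biopython 1.88).

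The tests were checked on simulated data. On Poisson counts for 353 miRNAs the chi-square test over libraries recovered 68.5% of 200 changed 1.5-fold and called 2 of 153 unchanged ones. Of 20 simulated hairpins per size, the arm test called 5% at 2-fold, 25% at 4-fold and 85% at 16-fold, and it called 0 of the 94 unchanged ones that passed its filter. The test of 5p shares recovered 70% of 60 hairpins with 3-fold changed odds among 133 and called 2 of 73 unchanged ones. Alternatives were other scalings (TMM, DESeq2 1.42.0 size factors, RPM denominators), other count filters, DESeq2 for the arm test, no library block, and leaving out each library.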

Additional observations from a re-analysis of the deposited data

How the results depend on the processing

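The count of members that differed among libraries was 7 of 7 tested, where 90.1% of all tested miRNAs differed. It was lowest without library 1, at 4 of 6 tested (61.5% of all miRNAs). It was 6 of 6 without library 2 (86.9% of all) and 7 of 7 without library 3 (87.5% of all). The summed share of 0.664% of miRNA counts became 0.141% per RPM denominator, an alternative chosen after seeing the data, because these denominators count more than miRNAs. It ran from 0.389% without library 1 to 0.845% without library 2. The log2 ratios of the summed cluster, 2.00, 1.35 and -0.64 for library 1 over 2, 1 over 3 and 2 over 3, were 1.38, 0.49 and -0.89 with TMM factors and 1.35, 0.47 and -0.87 with DESeq2 size factors. All 5 arm differences were called with DESeq2, with TMM factors, without a count filter and with no replicate block (arm as the only term, 5 calls). Of all tested hairpins, 82.2%, 80.9%, 35.5% and 80.3% were called in these settings. With library 1, 2 or 3 left out, 4 of 4, 5 of 5 and 4 of 5 were called, against 85.9%, 65.6% and 69.5% of all. Without library 1, Mir188 fell below the count filter. The count of cluster hairpins whose 5p share differed was 3 of 4 tested, against 71.4% of all. Without library 1, 2 or 3 it was 2 of 4, 2 of 3 and 2 of 4, against 39.2%, 66.1% and 60.3% of all. Of 87 alternatives for the chi-square and arm tests of single members or hairpins, 84 kept their direction and side of the threshold, and the 3 others are given above, as are the lost calls on single 5p shares. The mean levels moved by less than 1 SD, which is wide here. The means that moved by over 1.5 times without a library are given above. Depth limits miR-501-5p, miR-188-5p in library 3, miR-362-5p in library 1 (6 counts) and both minor arms of Mir188 and Mir500.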
